A study of Mus musculus with 12 samples.

Results

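The genes described here make the red cell: 36 genes for globin chains, the transcription factors and cytokine receptor of red cell precursors, haem synthesis, the red cell membrane and gas exchange. They were chosen by name and looked up in count tables of 23329 gene rows. The files hold 35 of them under their own symbol, and Sptb (beta spectrin) was found in the row Spnb1 through a RefSeq synonym. The mice were wild type C57BL/6J of 2 months, with no transgene or deletion named in the labels. They received 100 ul of a 1 mg/ml solution of AC H6, an antibody that activates LTbR (the lymphotoxin beta receptor), or of an isotype control, and tissue was taken after 24 h. Spleen and duodenum each gave 3 isotype and 3 AC H6 libraries, 12 in all. The study asked which transcripts respond when LTbR is induced, and whole tissue was used, so fewer cells of a type and less RNA per cell cannot be told apart.

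Red cells arise from precursors that switch on Gata1, Tal1 and Klf1, respond to erythropoietin, build a membrane skeleton of spectrin and ankyrin under band 3, and make haem and globin in matched amounts. The mature cell has no nucleus but keeps some globin RNA for a time, so a whole-tissue library can hold red cell RNA both from precursors and from blood. The mouse spleen makes red cells throughout life in its red pulp and does so more strongly under stress. In the duodenum, haem synthesis serves all cells and iron is absorbed from food.

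Library totals ran from 13874091 (spleen isotype 1) to 45847467 counts (spleen AC H6 1). The labelled tissues carried their markers: summed over 6 enterocyte genes the duodenum libraries held 17557 to 21909 CPM (counts-per-million scaled by the trimmed mean of M values, TMM) and the spleen libraries 23.1 to 34.0, while 8 B cell genes summed to 2964 to 4037 CPM in spleen and 10.6 to 15.9 in duodenum. The labels do not tie each library to its own mouse, so the p-values speak only of the spread among these libraries, which may be technical. A gene was called where edgeR's quasi-likelihood test gave an adjusted p under 0.05 (Benjamini-Hochberg, over the whole table tested). Standard errors of log2 changes are those of that fit, and levels are given as mean ± SD with n = 3 libraries per group.

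The promoters of 27 of the 36 genes were found in RefSeq's table for GRCm38.p6, in 30 windows of 250 bases before a transcript start. Since the levels of these genes varied together over the spleen libraries, the windows were searched on both strands for the letters bound by GATA factors (AGATAA or AGATAG, and likewise with the other first base TGATAA or TGATAG) and for CACCC, the motif of Klf1. A GATA match stood in 18 of the 30 windows (60%), against 26.5% of all 32851 windows of that length. CACCC matched in 22 (73.3%, against 52%), and both stood in 15 (50%, against 11.8%). A match describes the letters and is neither a site nor a cause. Printed here, because they belong to the main globin genes, the first haem enzyme and one of the genes that differed most between libraries, are the stretches of 4 such windows that lie outside the gene's annotated extent, with matches on either strand in capitals. They lie on the plus strand at chr11:32283422-32283510 (Hba-a1), chrX:150547167-150547374 (Alas2) and chr17:36869324-36869573 (Trim10), and on the minus strand at chr7:103828097-103828178 (Beta-s), and all are written 5′ to 3′ along the gene.
Hba-a1: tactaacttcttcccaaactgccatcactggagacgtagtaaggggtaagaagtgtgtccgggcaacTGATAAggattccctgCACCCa
Beta-s: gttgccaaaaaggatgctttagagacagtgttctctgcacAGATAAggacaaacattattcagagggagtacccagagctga
Alas2: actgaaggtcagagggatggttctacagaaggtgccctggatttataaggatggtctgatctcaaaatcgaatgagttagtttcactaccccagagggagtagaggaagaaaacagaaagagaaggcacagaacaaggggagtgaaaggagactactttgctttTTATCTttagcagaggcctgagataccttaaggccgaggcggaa
Trim10: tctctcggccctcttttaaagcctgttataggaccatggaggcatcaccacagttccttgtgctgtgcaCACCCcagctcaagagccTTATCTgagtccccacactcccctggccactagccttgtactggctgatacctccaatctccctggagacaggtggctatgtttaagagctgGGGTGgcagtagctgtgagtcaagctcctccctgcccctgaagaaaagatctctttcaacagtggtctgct

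In spleen all 36 genes had a fitted log2 change above 0 under AC H6, and none passed the test. The median change was 1.12, from 0.57 for Slc25a38 to 1.46 for Trim58, beside a median of -0.0009 over the 15270 genes tested, 49.8% of which lay above 0. Adjusted p ran from 0.12 to 0.287. edgeR called 0 of the 36, where it called 2.06% of all genes higher and 1.92% lower. DESeq2 also called 0 (it called 10.1% of the genes it gave an adjusted p, in either direction) and limma-voom 0 (3.84% of all genes). At an unadjusted p under 0.05 stood 14 of the 36 (38.9%), all higher, against 14.6% of all genes that were higher at that p. The 14 include the 5 globin rows, some of which repeat the same counts, so the share is not one of separate results. The 3 AC H6 libraries all lay above the 3 isotype libraries for 2 genes, Tal1 and Cpox (5.56%), against 15.9% of all genes.

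The libraries fell in nearly 1 order for every gene. AC H6 library 1 was highest and AC H6 library 3 second in 36 of 36 genes, and isotype library 3 was lowest in 36 of 36. Between them lay isotype libraries 1 and 2 and AC H6 library 2, and isotype 2 was above AC H6 2 for 33 of the 36. The groups overlapped for 34 of the 36 genes, and AC H6 library 2 sat among the isotype libraries. The highest library exceeded the lowest by 2.78-fold (Slc25a38) to 19.5-fold (Trim58), with a median of 7.24-fold. The plot of levels by library shows this order.

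**Figure D1:**
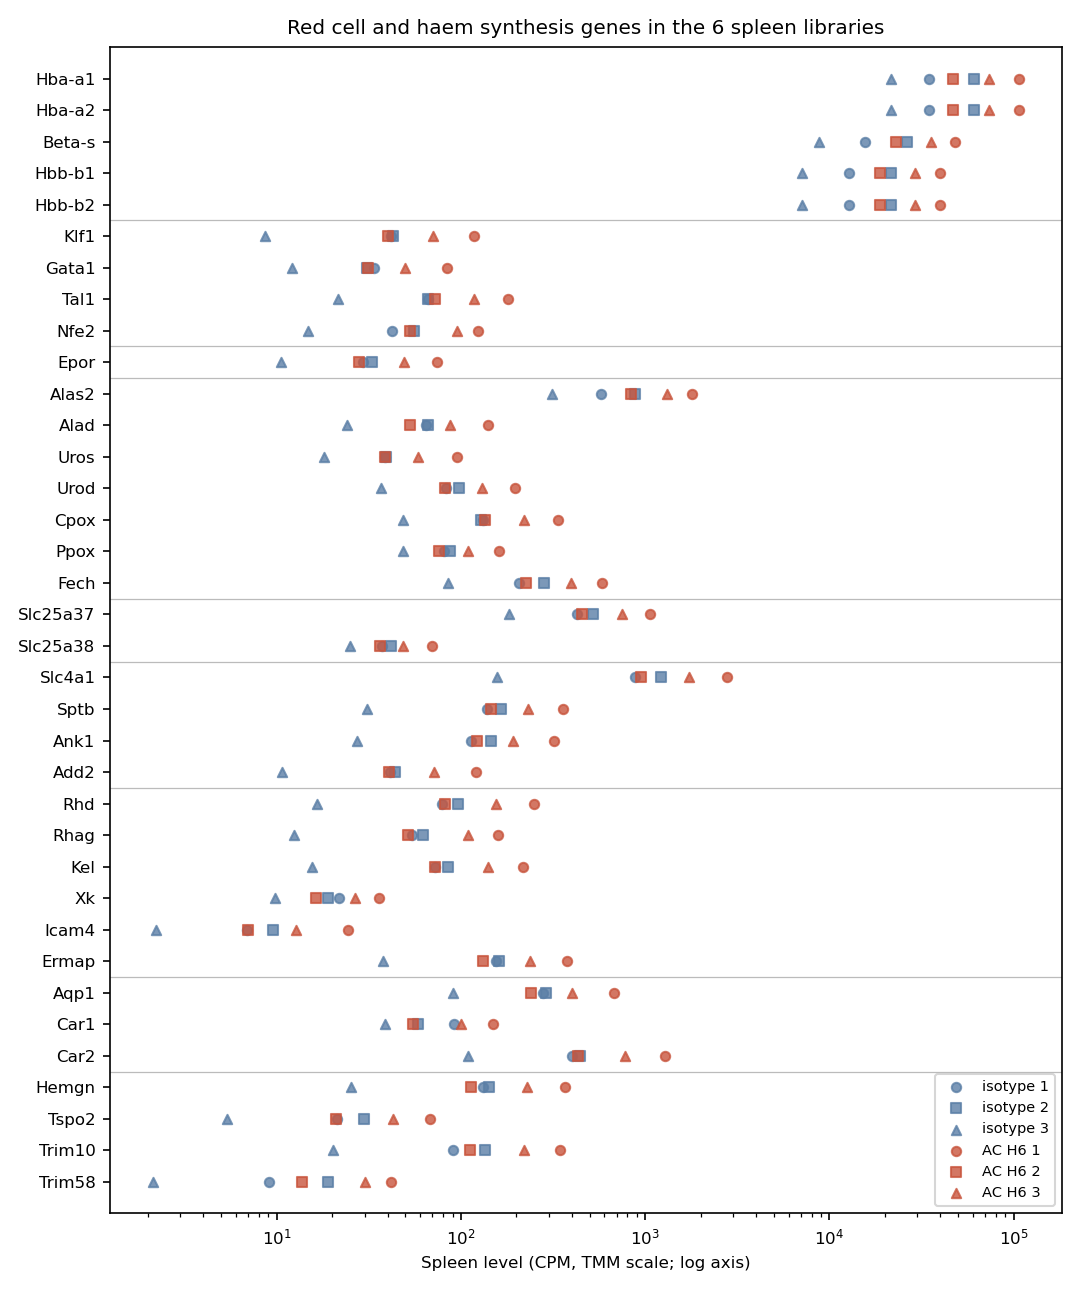
Level of each of the 36 genes (CPM on a log axis) in the 3 isotype (blue) and 3 AC H6 (red) spleen libraries, with the marker shape giving the library number and grey lines dividing the roles. AC H6 1 is the rightmost point and isotype 3 the leftmost in all 36 rows.

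The globin rows were the most abundant of the set. Hba-a1, an adult alpha globin gene, stood at 34699, 60641 and 21449 CPM in isotype libraries 1, 2 and 3 and at 106450, 46596 and 73005 CPM in AC H6 libraries 1, 2 and 3. Its isotype 2 level exceeded that of AC H6 2, so the groups overlapped, and its log2 change was 0.95 ± 0.41 (edgeR adjusted p = 0.179). Hba-a2, the second alpha globin gene, had counts within 0.0033% of those of Hba-a1 in each library, with 34698, 60639 and 21449 CPM in the isotype and 106450, 46595 and 73004 CPM in the AC H6 libraries. The files keep reads with several matches, and the coding sequences of the pair, read from GENCODE M21 transcripts, differ at 1 of 429 positions. The alpha globin rows are therefore 1 measurement counted in each row.

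Beta-s, the row of the adult beta globin gene Hbb-bs, stood at 15640, 26372 and 8777 CPM in the isotype and 48193, 23092 and 35480 CPM in the AC H6 libraries. Hbb-b1 and Hbb-b2, further beta globin rows, agreed within 0.00066% and both stood at 12804 and 7107 CPM in isotype libraries 1 and 3 and at 39657, 18829 and 29091 CPM in the AC H6 libraries, with 21652 for Hbb-b1 and 21651 for Hbb-b2 in isotype 2. As for alpha globin, AC H6 library 2 lay below isotype library 2. The log2 change was 1.07 ± 0.40 for Beta-s and 1.08 ± 0.41 for each of the other beta globin rows (edgeR adjusted p = 0.145 and 0.147). Neither Hbb-b1 nor Hbb-b2 was matched to a gene of the annotation used, so no position is given, and the 5 globin rows are not independent of each other. The count ratio of Hba-a1 to Beta-s was 2.22, 2.3 and 2.44 in isotype libraries 1, 2 and 3 and 2.21, 2.02 and 2.06 in AC H6 libraries 1, 2 and 3, a narrow range beside the 4.96-fold spread of the Hba-a1 level.

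Among the 4 transcription factors the levels were lower and the order of libraries similar. Klf1, which activates the adult beta globin gene (chromosome 8, 84901928 to 84905291, plus strand, GRCm38), stood at 41.5, 42.9 and 8.64 CPM in the isotype and at 118, 40.0 and 70.6 CPM in the AC H6 libraries. Gata1, the lineage's GATA factor, measured 33.9, 30.8 and 12.2 CPM under isotype and 84.3, 31.1 and 50.0 CPM under AC H6. For both genes AC H6 library 2 lay within the isotype range, and the log2 changes were 1.30 ± 0.59 for Klf1 and 1.12 ± 0.44 for Gata1 (edgeR adjusted p = 0.196 and 0.159).

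Tal1, a helix-loop-helix partner of Gata1, measured 66.6, 66.5 and 21.4 CPM under isotype and 181, 71.9 and 118 CPM under AC H6. Its groups did not overlap, by the small gap between 66.6 and 71.9 CPM, and the log2 change was 1.26 ± 0.46 (edgeR adjusted p = 0.14). Nfe2, which acts at globin enhancers and also in platelet formation, gave 42.4, 55.7 and 14.7 CPM under isotype and 124, 53.1 and 95.6 CPM under AC H6 (log2 change 1.27 ± 0.47, edgeR adjusted p = 0.143). Epor, the receptor for erythropoietin, gave 29.5, 32.9 and 10.5 CPM and 73.8, 28.1 and 49.0 CPM (log2 change 1.05 ± 0.46, edgeR adjusted p = 0.185). For Epor AC H6 library 2 was below isotype libraries 1 and 2.

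Of the haem synthesis enzymes, Alas2 makes the first and limiting step in red cells (chromosome X, 150547375 to 150570638, plus strand, GRCm38). It stood at 572, 877 and 311 CPM under isotype and at 1790, 840 and 1307 CPM under AC H6, with a log2 change of 1.16 ± 0.39. Its edgeR adjusted p of 0.12 was the smallest of the 36 genes, and AC H6 library 2 lay just under isotype library 2. Fech, ferrochelatase, which puts iron into the ring at the last step, gave 208, 283 and 85.0 CPM under isotype and 582, 225 and 396 CPM under AC H6 (log2 change 1.06 ± 0.46, edgeR adjusted p = 0.183).

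The enzymes between them lay at 18.0 to 335 CPM. Cpox, coproporphyrinogen oxidase, was the other gene whose groups did not overlap, with 48.3 to 133 CPM under isotype and 135 to 335 CPM under AC H6 (log2 change 1.16 ± 0.43, edgeR adjusted p = 0.144). Log2 changes of the remaining enzymes were 0.85 for Alad, 1.01 for Uros, 0.91 for Urod and 0.68 for Ppox, which condense, close, trim and oxidise the porphyrin ring. Of the 7 enzymes 3 (Alas2, Uros and Cpox) had an unadjusted p under 0.05.

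Haem synthesis is fed through carriers of the inner mitochondrial membrane. Slc25a37, mitoferrin 1, imports iron and gave 425, 521 and 181 CPM under isotype and 1062, 452 and 744 CPM under AC H6 (log2 change 1.00 ± 0.42, edgeR adjusted p = 0.17). Slc25a38, which brings in glycine, ran from 24.9 to 41.7 CPM under isotype and from 36.3 to 69.2 CPM under AC H6. Its log2 change of 0.57 ± 0.26 was the smallest of the set, as was its spread over the 6 libraries.

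Membrane genes had wide spreads. Slc4a1, the anion exchanger band 3 that anchors the skeleton, stood at 880, 1215 and 158 CPM in the isotype and at 2778, 946 and 1739 CPM in the AC H6 libraries. Isotype library 3 held its level 7.70-fold below isotype library 2, and the log2 change was 1.28 ± 0.68 (edgeR adjusted p = 0.255). Sptb (beta spectrin), Ank1 (ankyrin 1) and Add2 (beta adducin), which make up the skeleton with it, had log2 changes of 1.13, 1.14 and 1.28 and were 5.37-fold, 5.36-fold and 4.12-fold lower in isotype 3 than in isotype 2.

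Rhag, the Rh-associated glycoprotein, gave 54.4, 61.9 and 12.4 CPM under isotype and 158, 51.9 and 109 CPM under AC H6 (log2 change 1.31 ± 0.59, edgeR adjusted p = 0.195). AC H6 library 2 was here below isotype libraries 1 and 2. Of the other blood group and surface genes, the log2 change was 1.34 for Rhd (the Rh protein), 1.32 for Kel (the Kell antigen), 1.22 for Icam4 (the LW antigen), 1.07 for Ermap (the Scianna antigen) and 0.65 for Xk, the partner of Kell. Xk ran from 9.75 to 21.9 CPM under isotype and from 16.3 to 35.8 under AC H6, a narrower range than the other 5. None of these 6 genes had an unadjusted p under 0.05.

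For gas exchange and water, Car2 (carbonic anhydrase 2) stood at 400, 441 and 109 CPM under isotype and at 1277, 431 and 779 CPM under AC H6 (log2 change 1.39 ± 0.55, edgeR adjusted p = 0.157). Car1 (carbonic anhydrase 1), which lies beside it on chromosome 3, gave 91.3, 58.7 and 38.9 CPM under isotype and 149, 55.2 and 100 CPM under AC H6 (log2 change 0.70 ± 0.40, edgeR adjusted p = 0.287). The count of Car1 per 1000 of Car2 was 228, 133 and 355 in isotype libraries 1, 2 and 3, highest in isotype 3, and 117 to 129 in the AC H6 libraries. Aqp1, the water channel aquaporin 1, ran from 90.9 to 290 CPM and from 241 to 677 CPM, with a log2 change of 1.00 ± 0.49.

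Hemgn, a nuclear protein of red cell precursors, gave 132, 141 and 25.4 CPM under isotype and 367, 113 and 228 CPM under AC H6 (log2 change 1.24 ± 0.63, edgeR adjusted p = 0.239). Trim58, a ubiquitin ligase of late precursors, gave 9.04, 19.0 and 2.14 CPM and 41.6, 13.7 and 30.2 CPM (log2 change 1.46 ± 0.66, edgeR adjusted p = 0.198), and its isotype library 3 value rests on 54 counts. Trim10, a related protein needed for late maturation, had a log2 change of 1.46, and Tspo2, a membrane protein that carries cholesterol, of 1.21. All 4 of these genes were lower in isotype 3 than in isotype 2 by at least 5.52-fold.

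**Figure D2:**
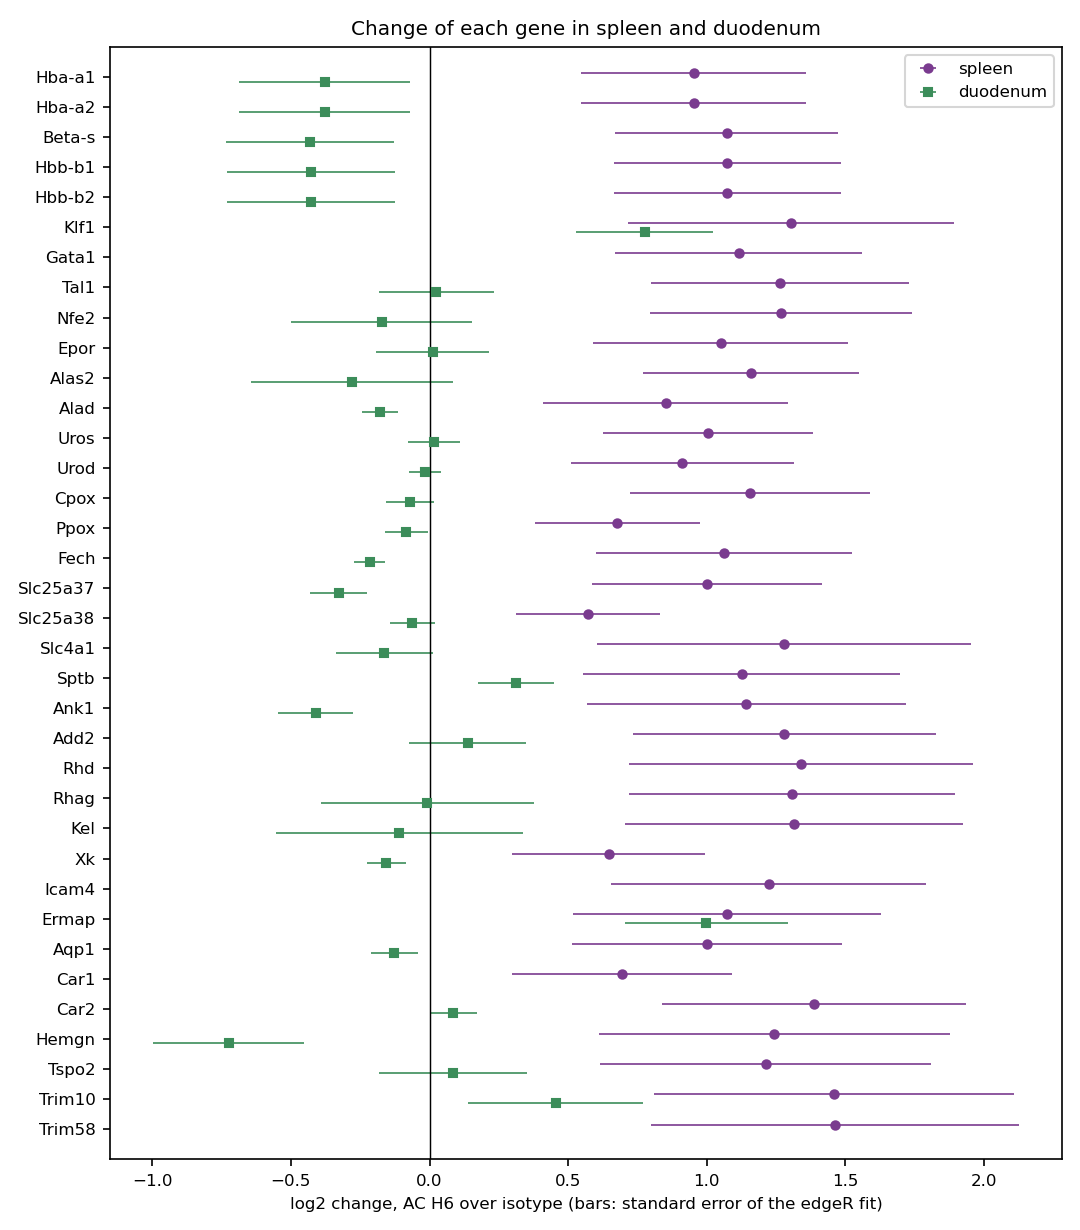
Log2 change of AC H6 over isotype for each gene in spleen (circles, all 36 genes) and duodenum (squares, the 31 genes tested there), with the standard error of the edgeR fit as bars. The spleen values all lie above 0, while those of the duodenum have a median of -0.11.

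Exon lengths allow only a rough comparison of levels between genes, since the annotation used for counting is not given. Each length joins all exons of a gene in GENCODE M21, and reads with several matches are kept. Hba-a1 and Hba-a2, with near-identical counts, thus came out at 47943 and 58364 per length under isotype, from lengths of 812 and 667 bases. Under isotype the per-length level (CPM divided by exon length in kilobases, mean ± SD) was 47943 ± 24551 for Hba-a1 and 22044 ± 11547 for Beta-s. It was 244 ± 118 for Alas2, 154 ± 110 for Slc4a1 and 131 ± 74.7 for Car2, and 20.3 ± 12.7 for Klf1. At the low end stood Xk at 3.33 ± 1.25 and Add2 at 3.15 ± 1.82. The alpha globin row thus stood far above band 3 and the haem enzymes per length, and the lowest genes differed from each other by less than their spread.

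Folds between libraries of 1 group varied by role, with overlap between roles. From isotype 3 to isotype 2, globin rows were 2.83 to 3.05-fold higher and haem synthesis enzymes 1.81 to 3.33-fold higher. The membrane skeleton genes were 4.12 to 7.70-fold higher and the 4 other red cell proteins (Hemgn, Tspo2, Trim10 and Trim58) 5.52 to 8.86-fold higher. Blood group genes ran from 1.95-fold (Xk) to 5.83-fold (Rhd), transcription factors from 2.53 to 4.97-fold, the water channel and carbonic anhydrases from 1.51 to 4.03-fold and the carriers from 1.68 to 2.87-fold, overlapping the other roles. From AC H6 2 to AC H6 1 the medians were closer, from 2.11-fold for globin rows to 3.16-fold for those 4 proteins. These folds describe single libraries and carry no test.

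**Figure D3:**
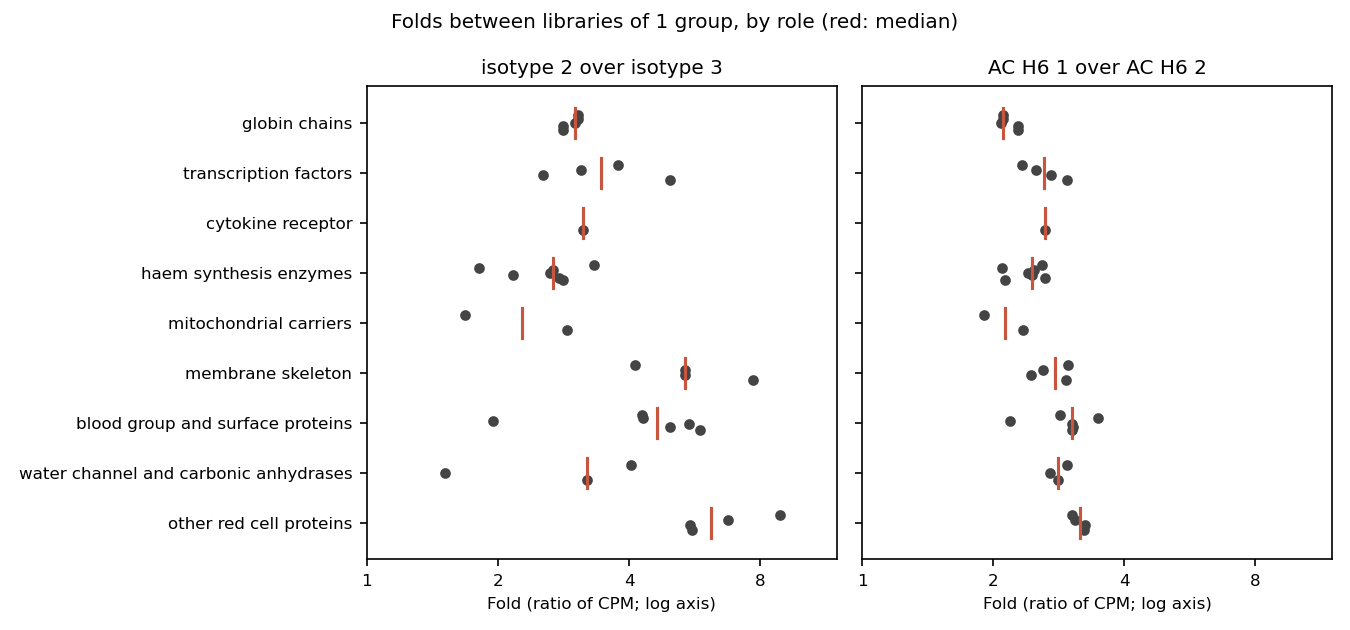
Ratio of CPM between libraries of the same group for each gene (points) by role, with the median in red, for isotype 2 over isotype 3 (left) and AC H6 1 over AC H6 2 (right), on log axes. In the left panel membrane skeleton and other red cell proteins lie at 4.12 and above and globin rows near 3.

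Ratios of counts inside a library, which do not depend on scaling, show the same unevenness. Slc4a1 per 1000 counts of Hba-a1 was 25.4, 20.04 and 7.36 in isotype libraries 1, 2 and 3 and 26.1, 20.3 and 23.8 in AC H6 libraries 1, 2 and 3. Klf1 per 1000 counts of Alas2 was 72.5, 48.9 and 27.8 under isotype and 66.1, 47.6 and 54.0 under AC H6. Rhag per 1000 counts of Alas2 was 95.1, 70.6 and 40.0 under isotype and 88.5, 61.7 and 83.0 under AC H6. In each of these ratios isotype library 3 was lowest, and isotype 1 and 2 lay within or near the AC H6 values. Alas2 per 1000 counts of Hba-a1 stayed within 14.5 to 18.0 over all 6 libraries. Its 3 AC H6 values (16.8, 18.0 and 17.9) lay above the isotype values (16.5, 14.5 and 14.5), by a small gap. Several ratios were computed and none was tested, and those of Hba-a1 to Beta-s and Car1 to Car2 also lay apart between the groups.

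**Figure D4:**
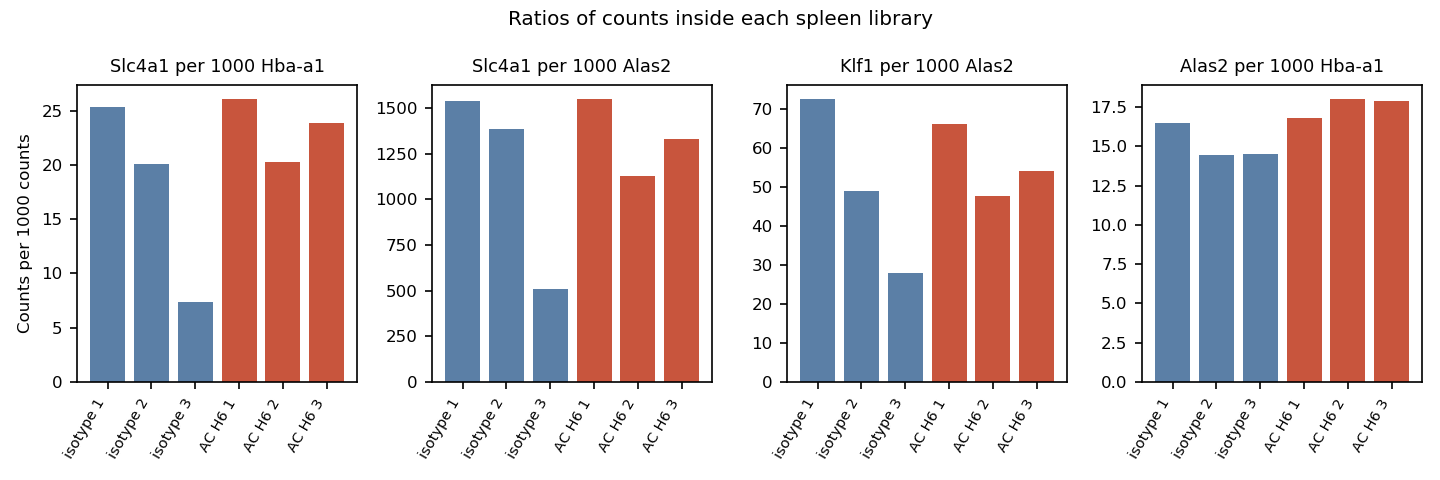
Counts of 1 gene per 1000 counts of another in each spleen library (bars, axes from 0; isotype in blue, AC H6 in red). Isotype 3 is lowest for band 3 and Klf1 (7.36 per 1000 Hba-a1 and 27.8 per 1000 Alas2), while Alas2 per 1000 Hba-a1 ranges from 14.5 to 18.0.

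Single libraries decided the size of the difference. With AC H6 library 1 left out the median log2 change over the 36 genes was 0.74 and 0 genes had an unadjusted p under 0.05. Without isotype library 3 the median was 0.76 and 5 genes had such a p, and 5 had it without isotype 1 and 1 without AC H6 3. Leaving out AC H6 library 2 gave a median of 1.40 and 33 such genes, and leaving out isotype 2 gave 1.54 and 26. Over all genes, 9.18% to 17.3% were higher at that p in these fits. In each of them all 36 changes were above 0 and none passed adjustment, with a smallest adjusted p of 0.063 without AC H6 2.

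Further genes of red cells were looked at as a list. Of 37 tested, edgeR called 0, 17 had an unadjusted p under 0.05, 35 lay above 0 and the median log2 change was 0.95. Of all spleen genes, edgeR called 2.06% higher and 1.92% lower, 14.6% were higher at that unadjusted p and 49.8% lay above 0. The spleen lists that follow have the same shares beside them. Ube2l6, a ubiquitin-conjugating enzyme, ran from 83.2 to 213 CPM under isotype and from 214 to 440 CPM under AC H6 (log2 change 1.17 ± 0.36). Log2 changes were 1.00 for Epb4.1, the skeleton's protein 4.1, 1.03 for Hba-x, the embryonic alpha-like globin at 1.23 to 5.93 CPM, and 0.84 for Mkrn1, a ubiquitin ligase. In duodenum Ube2l6 was also called higher (log2 change 0.35, edgeR adjusted p = 0.0081). There Epb4.1 was called lower (-0.32, edgeR adjusted p = 0.0070), Mkrn1 was not called and Hba-x was not tested.

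Among 22 genes of haem and iron supply, edgeR called 0, 11 had an unadjusted p under 0.05 and the median was 0.30. Alas1, the housekeeping form of the first haem enzyme, stood at 32.2, 36.5 and 34.2 CPM under isotype and at 41.5, 40.2 and 41.5 CPM under AC H6, without overlap (log2 change 0.26 ± 0.06, edgeR adjusted p = 0.0626). Unlike Alas2, Alas1 varied little within a group. Bach1, a haem-binding repressor, had a log2 change of 0.20, Glrx5, needed for iron-sulphur clusters, of 1.05 and Hebp1, a haem-binding protein, of 0.66.

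The summed levels of erythropoiesis signals and early progenitor markers varied little between libraries. In the list of 14 tested signals of stress erythropoiesis edgeR called 0, 2 had an unadjusted p under 0.05 (Kitl, the ligand of Kit, at 0.26, and Stat5b, which acts below Epor, at -0.14) and the median was -0.03. Cish, a target of Stat5, was at 0.30 and Bmpr1a, a receptor for bone morphogenetic protein, at -0.15. Their summed level ran from 950 to 977 CPM under isotype and from 917 to 976 CPM under AC H6. Of 9 early progenitor markers Cd34 rose (log2 change 0.43 ± 0.09, edgeR adjusted p = 0.0497), while Flt3 was at -0.40 and Runx1 at -0.13, and the sum ran from 324 to 342 and from 336 to 348 CPM.

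Other cell types in the same spleens moved too, and their part in the red cell values was not tested. All 12 neutrophil and granule markers rose (Mmp8, Csf3r, Mmp9 and S100a9 by 1.16, 1.09, 0.96 and 1.56 on the log2 scale), with summed levels of 610 to 955 CPM under isotype and 1891 to 2711 CPM under AC H6. Of 11 megakaryocyte and platelet markers edgeR called 4 higher (Pf4, Tubb1, Itga2b and Ppbp, by 0.89, 0.65, 0.65 and 0.74). All 11 had changes above 0 and an unadjusted edgeR p under 0.05, where 14.6% of all genes were higher at that p. For all 11 the 3 AC H6 libraries lay above the 3 isotype libraries, against 15.9% of all genes. Their sum ran from 353 to 457 CPM under isotype and from 545 to 779 CPM under AC H6. In the sums of the neutrophil and megakaryocyte lists AC H6 library 3 was highest, unlike in the red cell genes. As for the red cell genes, library 2 was lowest of the AC H6 libraries and isotype library 3 was lowest of all. The 12 cell division genes had 0 called and 11 with an unadjusted p under 0.05, at a median log2 change of 0.88, with 0.72 for Mcm5, 0.86 for Top2a, 0.89 for Tyms and 0.57 for Pcna. Their summed level was 1495, 1568 and 759 CPM under isotype and 3137, 1654 and 2125 CPM under AC H6, an order close to that of the red cell genes.

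Of 12 red pulp macrophage and haem recycling markers 3 rose, 1 fell and 8 were not called, at a median log2 change of 0.25. Hp (haptoglobin, which binds free haemoglobin) had a log2 change of 1.68 ± 0.15, Trf (transferrin) of 0.41 ± 0.08 and Cd5l of 0.33 ± 0.07. Hmox1, haem oxygenase 1, which breaks haem down, fell by 0.53 on the log2 scale from 399 to 428 CPM under isotype to 267 to 309 CPM under AC H6. The list's sum ran from 2210 to 2288 and from 2319 to 2477 CPM. The 8 T cell markers all had changes below 0 (median -0.38), and edgeR called Cd3e, Tcf7 and Cd5 lower. Their sums ran from 681 to 780 CPM under isotype and from 541 to 608 CPM under AC H6. The 8 B cell markers all had changes below 0 (median -0.30), with sums of 3657 to 4037 CPM under isotype and 2964 to 3409 CPM under AC H6.

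**Figure D5:**
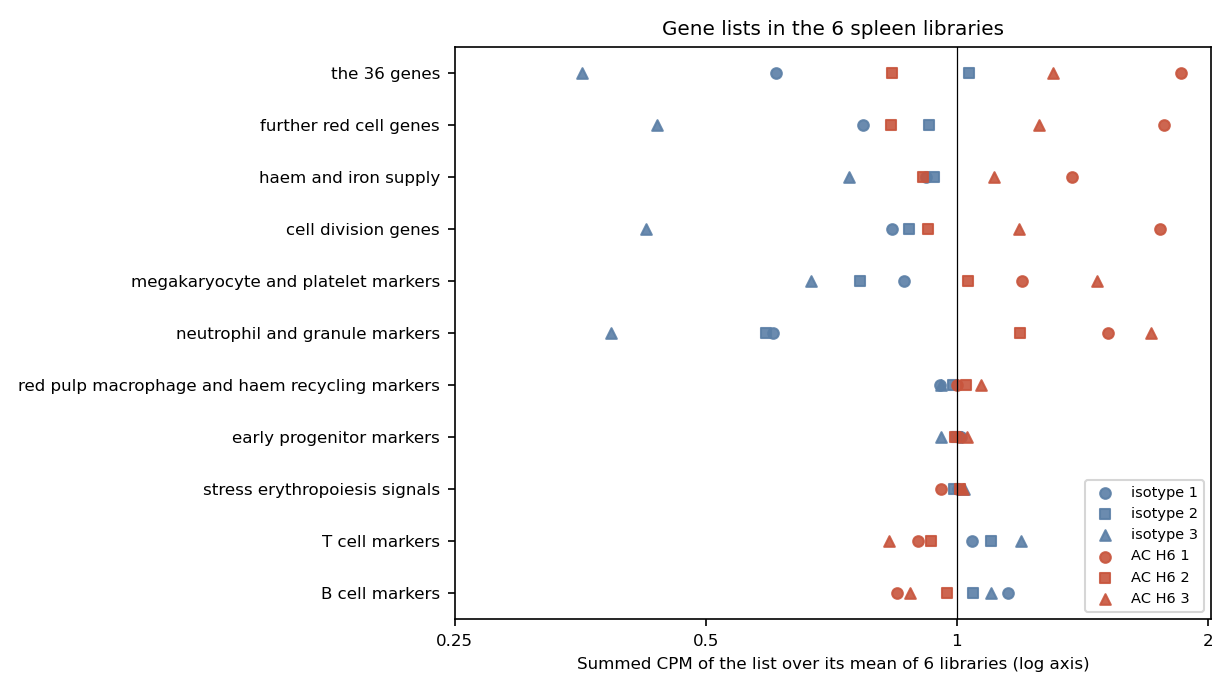
Summed CPM of each gene list in the 6 spleen libraries, divided by its mean over them (log axis). The red cell, cell division and haem and iron lists put AC H6 1 at the right and isotype 3 at the left, while the sums of stress signals and early progenitors stay near 1.

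In the duodenum the globin rows and most precursor genes were far lower than in spleen, and the 31 genes tested showed no common direction. Car2 (497 to 588 CPM under isotype), Aqp1 (103 to 124), Cpox, Fech and Alad were well expressed there. Hba-a1 stood at 128, 267 and 112 CPM under isotype and at 136, 154 and 99.8 CPM under AC H6, and Alas2 at 2.15, 3.90 and 1.25 CPM and 2.14, 2.40 and 1.62 CPM. Isotype library 2 was the highest for both. In 1 fit of all libraries the isotype mean of 25 of the 36 genes was at least 5-fold higher in spleen than in duodenum, while 11 differed by less than 5-fold or were higher in duodenum (6 haem enzymes, Slc25a38, Add2, Xk, Aqp1 and Car2). Gata1, Rhd, Icam4, Car1 and Trim58 were too low there to be tested, and none of these exceeded 0.361 CPM in any duodenum library.

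Of the 31 genes tested in the duodenum edgeR called 2 higher (6.45%, against 18.5% of all genes) and 3 lower (9.68%, against 16.1%), with a median log2 change of -0.11. Klf1 rose by 0.78 ± 0.25 (edgeR adjusted p = 0.0404) from 8, 13 and 9 counts under isotype to 23, 22 and 22 counts under AC H6. Ermap rose by 1.00 ± 0.29 (edgeR adjusted p = 0.0304) from 0.263, 0.674 and 0.673 CPM to 1.08, 1.26 and 1.03 CPM. Both rest on few counts, and Klf1 lost its call under DESeq2 (adjusted p = 0.231), under limma-voom (0.0519) and with each library left out in turn (0.053 to 0.132).

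Fech fell by 0.22 on the log2 scale, from 54.6, 56.3 and 50.4 CPM to 46.7, 47.7 and 44.5 CPM (edgeR adjusted p = 0.0179). Slc25a37 fell by 0.33, from 22.3, 22.7 and 27.9 CPM to 17.4, 20.3 and 20.6 CPM (edgeR adjusted p = 0.0378), and Ank1 fell by 0.41, from 6.67, 7.45 and 6.46 CPM to 5.47, 5.84 and 4.27 CPM (edgeR adjusted p = 0.0455). Of the 31 genes tested, the groups lay apart for 3 in the higher and 5 in the lower direction. These were the 5 called genes and also Sptb, Alad and Hemgn, which were not called. The share over all duodenum genes was not computed, so this adds no support to the calls. With 1 library left out, 0 to 2 of the 5 calls were made in place of 5, and 0 were made without AC H6 library 3. Duodenum isotype library 1 held 7.56% of its counts in the ribosomal RNA row Rn45s, against 0.124% in isotype library 2, and the part of this in the duodenum values was not tested.

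Of the 22 haem and iron supply genes 12 fell and 0 rose in the duodenum (16.1% of all genes fell), at a median log2 change of -0.24. In the same libraries 4 of 6 enterocyte markers fell and 1 rose, with sums of 20666 to 21909 CPM under isotype and 17557 to 18467 CPM under AC H6. Of the neutrophil markers 4 of the 6 tested rose (sums 43.7 to 47.9 and 82.1 to 95.7 CPM), as did 9 of 12 cell division genes (sums 514 to 549 and 646 to 773 CPM). The part of these in the haem and iron values was not tested. Of 30 further red cell genes tested there, 8 rose and 4 fell, beside the 18.5% and 16.1% of all genes.

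The change in spleen and the change in duodenum were compared by the interaction of tissue and treatment over 12 libraries. This fit uses 1 spread per gene for both tissues. Isotype libraries differed by 3.33-fold in spleen and 1.12-fold in duodenum for Fech, and by 2.83-fold and 2.38-fold for Hba-a1. For the spleen contrast, 1 edgeR fit of all 12 libraries gave 35 genes at an unadjusted p under 0.05, against 14 in spleen alone. The interaction p-values may therefore understate the spread among spleen libraries. edgeR called 0 of the 36 genes (10.9% of all genes were called with a higher and 9.13% with a lower change in duodenum), and the smallest adjusted p was 0.0724, for Slc25a37. The change was lower in duodenum than in spleen for 35 of the 36, with Car1 as the exception, and the median difference was -1.20 on the log2 scale, beside -0.012 for all genes. At an unadjusted p under 0.05 stood 12 genes (33.3%, against 16.5% of all genes in that direction). All globin rows, which are not independent of each other, were among the 12. DESeq2 called 1 gene, Slc25a37 (adjusted p = 0.0392), where it called 23.1% of the genes it gave an adjusted p, and limma-voom called 0, where it called 18.2%.

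Single spleen libraries moved these calls as well. Without spleen isotype library 2 edgeR called 7 genes in the interaction (the 5 globin rows, Fech and Slc25a37), all with a lower change in duodenum, where 17% of all genes were called in either direction and 7.99% with a lower change. Without spleen AC H6 library 2 it also called 7 (Uros, Cpox, Ppox, Fech, Slc25a37, Slc25a38 and Xk), again all lower, where the shares of all genes were 21.8% and 10.5%. In that 1 direction 7 of 36 is above the shares of 7.99% and 10.5%. Over both directions it is near 17% and 21.8%. The 5 globin rows are not independent and each count depends on 1 library being left out. Nothing particular to the genes is therefore read from these counts. Fech and Slc25a37 were in both sets. Leaving out any other library gave 0 calls, and without spleen AC H6 1 the median difference was -0.78.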

How the data were processed

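RNA was extracted with Trizol and RNeasy columns and made into libraries with TruSeq RNA reagents, which leave the strand unmarked, per the labels' protocols, which speak of brain although the tissue labels name spleen and duodenum. Per the submitters' processing notes, the authors worked on build mm10 with STAR 2.3, bcl2fastq 2.19, Trimmomatic and edgeR. How reads were counted, and on which annotation, is not given in the sources used here. For each library the authors deposited 1 table of raw read counts per gene, and per the file headers these counts keep reads with several matches, so near-identical globin genes share reads.

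From the counts, edgeR 4.0.16 (R 4.3.3) gave, after filterByExpr, TMM factors, CPM and its quasi-likelihood test, for each tissue on its 6 libraries and for the interaction on all 12. The standard error of a log2 change is its size over the square root of F. Fitted changes of low genes depend on a prior count. DESeq2 1.42.0 and limma-voom (limma 3.58.1) were alternatives. The edgeR test was checked on simulated data. Groups came from the tissue and treatment labels. Counts of any 2 libraries of a group differed with a chi-square of at least 25.9 per degree of freedom, so none repeated another within sampling noise. Levels per length used exon lengths of GENCODE M21 (GRCm38), and the promoter windows are RefSeq's.

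The 36 genes and all lists were chosen with earlier results of these data known. By rule all 36 are named, with values per library for globins, transcription factors, Epor, Alas2, Fech, Slc4a1, Rhag, Slc25a37, Car1, Car2, Hemgn, Trim58 and genes called in spleen. Others are given by range or change, and each further list by up to 4 genes of smallest spleen p, of which some are not reported here. The duodenum genes given per library were chosen after their values were seen. Ahsp was not analysed here. The enterocyte list had 0 of 6 genes called in spleen (0 at an unadjusted p under 0.05).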

Additional observations from a re-analysis of the deposited data

How the results depend on the processing

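The count of the 36 genes called in spleen was 0 under every alternative run (other size factors, no or stricter filter, DESeq2, limma-voom, haemoglobin rows removed, replicate block, 1 fit of 12 libraries, each library left out), and all changes stayed above 0, 31 of 31 with haemoglobin rows removed. The count at an unadjusted p under 0.05 (14) was 23 without a filter, 9 with DESeq2, 9 with haemoglobin rows removed, 35 in 1 fit of 12 libraries, and 0 to 33 with 1 library left out. The genes called in spleen (608) numbered 1356 with DESeq2, 1390 in 1 fit of 12 libraries, 1 with the replicate block and 14 to 1132 with 1 library left out. The median change of the 36 genes in spleen ran from 0.74 to 1.54 over the left-out libraries. Calls in the duodenum (5) were 3 with the stricter filter, which tested 20 of the genes, and 0 to 2 with 1 library left out. Klf1 in duodenum also lost its call without a filter (adjusted p = 0.0773) and with the replicate block (0.0544). Calls in the interaction (0) were 1 with DESeq2 and 0 to 7 with 1 library left out. The 5 globin rows were among the 14, and the other 9 were the ones left when haemoglobin rows were removed. The cause of the other shifts was not tested. The labels do not say whether libraries of the same number share more than a number. Their deviations from the group mean correlated at 0.542, -0.419 and -0.0638 in spleen and 0.58, 0.362 and -0.371 in duodenum. Spleen libraries of unlike number reached 0.687. Deviations within a group of 3 are tied to each other, so these values cannot decide whether libraries were paired. Libraries of 1 spleen group differed by up to 8.86-fold, and changes of the size fitted here did not exceed that spread. Duodenum values of Klf1, Ermap and the other low genes rest on few counts.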
